A study of Rattus norvegicus with 22 samples.

Results

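The genes described here build or handle the cytoskeleton of nerve cells: Nefl, Nefm, Tubb3, Stmn2, Rtn1, Map2 and Map6. Every probe set annotated with 1 of these symbols was taken, which gave 13 of the 15866 probe sets of the array without its controls, for 7 of 10411 genes. The genes were chosen by their values in whole embryo and embryo bone, where arrays of EMD 82571 and of retinoic acid differed, so those differences are given as a description without a test. Tests were run on other contrasts, namely the tissues' levels, the livers and the dose. Of the arrays, only the 13 livers took no part in the choice, while the tissue and dose contrasts share the whole embryo and bone arrays with it.

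The 22 arrays measured RNA of Wistar rats, from dams or from their embryos and fetuses. Pregnant females were given EMD 82571, a calcium sensitiser, at 50 or 150 mg/kg/day (EMD50 and EMD150), retinoic acid (RA) at 12 mg/kg/day, or vehicle (control). The drug is named MSC1096199 in the series' design text. Dosing began on gestational day 6 and ended on day 11 or day 17. Samples of day 12 were taken before day 17, which leaves the day 11 end for them. For the samples of day 20 the labels do not settle which end applies. Whole embryo was taken at day 12, with 1 EMD50, 1 EMD150, 2 RA (RA5 and RA56, codes that are not explained) and 1 control array. Embryo bone was taken at day 20, with 1 EMD50, 1 EMD150, 1 RA (RA56) and 1 control array. The other 13 arrays were embryo livers of day 20 and maternal livers of days 12 and 20. The labels do not say whether animals were pooled or whether arrays share a litter.

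Neurofilaments are the intermediate filaments of axons, built from a light chain (Nefl), a medium chain (Nefm) and a heavy chain, with peripherin (Prph) as a further partner in peripheral neurons. Microtubules of neurons contain the neuron-specific beta-tubulin isotype encoded by Tubb3, are stabilised by the proteins of Map2 (dendrites) and Map6, and are destabilised at growth cones by stathmin-2 (Stmn2). Rtn1 encodes a reticulon, a membrane-shaping protein of the endoplasmic reticulum that is abundant in neurons and neuroendocrine cells. The nerve fibres that grow into developing bone and the ganglia beside the spine are known to use these genes.

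Values are log2 RMA values, in which 1 unit is a 2-fold difference, and levels are compared within a probe set only. Array medians lay between 8.09 and 8.22. The EMD50 bone array stood apart in RNA quality, where GAPDH 3' probes exceeded its 5' probes by 2.72 (0.568 to 0.859 elsewhere) and those of actin by 0.978 (0.350 to 0.730 elsewhere). Bone arrays carried the genes of their tissue: the mean level of 9 osteoblast genes was 10.66 to 11.66 there and 6.77 to 7.36 in the livers. In bulk tissue, fewer nerve cells and less RNA per nerve cell cannot be told apart.

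The promoters of 3 of the 7 genes were in the RefSeq table of assembly GRCr8, and they are shown because these genes were low together in the RA bone array described below. Each run is the 250 bases before the start of the gene, 5′ to 3′ on the gene's strand: chr19:68365437-68365686 (+) for Tubb3, chr6:96719341-96719590 (-) for Rtn1 and chr9:75346440-75346689 (+) for Map2. Capitals mark GGGCGG, the GC box, and CANNTG, the E box, matched on both strands.
Tubb3: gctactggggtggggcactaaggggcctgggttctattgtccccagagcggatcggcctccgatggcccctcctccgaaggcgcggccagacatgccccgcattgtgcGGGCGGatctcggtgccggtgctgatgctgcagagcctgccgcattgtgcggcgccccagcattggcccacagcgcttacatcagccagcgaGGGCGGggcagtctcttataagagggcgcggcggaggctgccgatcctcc
Rtn1: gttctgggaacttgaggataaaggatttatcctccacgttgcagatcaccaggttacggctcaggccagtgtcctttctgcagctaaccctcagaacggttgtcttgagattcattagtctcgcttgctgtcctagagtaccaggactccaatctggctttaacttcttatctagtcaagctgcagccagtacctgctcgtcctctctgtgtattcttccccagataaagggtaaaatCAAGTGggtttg
Map2: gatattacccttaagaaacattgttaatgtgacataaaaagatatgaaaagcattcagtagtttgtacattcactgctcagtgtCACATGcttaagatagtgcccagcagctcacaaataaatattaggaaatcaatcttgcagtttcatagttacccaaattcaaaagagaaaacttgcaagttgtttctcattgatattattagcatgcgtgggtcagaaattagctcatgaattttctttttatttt
The Tubb3 window held 2 GC boxes at a GC content of 68.0%, while Rtn1 (47.6%) and Map2 (32.0%) each held 1 E box. Of 33469 RefSeq promoter windows of the same length, 30.47% held GGGCGG and 65.54% held CANNTG. The half-site of retinoic acid receptors, AGGTCA, was in none of these 3 windows and in 14.06% of all, which says only that these letters are not in them. Promoters of Nefl, Nefm, Stmn2 and Map6 were not analysed here.

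The neurofilament genes were high in both EMD 82571 bone arrays. Nefl, by probe set 1370058_at, read 9.13 in EMD50 bone, 8.31 in EMD150 bone, 6.06 in RA bone and 6.94 in control bone. Both EMD arrays stood above the control, by 4.54-fold and 2.58-fold, while the RA array stood 1.84-fold below it and below the 6.26 to 6.69 of the 13 livers. The other Nefl probe set, 1370059_at, had the same order: 7.39 in EMD50, 7.13 in EMD150, 5.63 in RA and 6.03 in control. Nefm read 8.79 in EMD50 bone, 8.41 in EMD150 bone, 6.10 in RA bone and 7.03 in control bone. Its EMD arrays were 3.38-fold and 2.61-fold above the control and its RA array 1.91-fold below it, at the level of livers (5.83 to 6.25).

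The genes of neuronal microtubule turnover and Rtn1 had another order, in which only the RA bone array was low by much. Stmn2 (1370041_at) read 9.81 in EMD50 bone, 10.23 in EMD150 bone, 7.64 in RA bone and 10.14 in control bone. Its second probe set, 1370042_at, read 8.66 and 8.86 in the EMD50 and EMD150 arrays, 6.23 in the RA array and 9.35 in the control. The RA array was thus 5.66-fold and 8.67-fold below the control for Stmn2, and the EMD arrays lay within 1.61-fold of it. Rtn1 read 9.86 in EMD50, 10.31 in EMD150, 7.79 in RA and 9.90 in control bone, which put RA 4.31-fold below the control. Map2 (1388152_at) read 8.59 in EMD50, 8.60 in EMD150, 7.35 in RA and 9.17 in control bone. Here the RA array was 3.52-fold below the control, and both EMD arrays were below it as well, by 1.49-fold and 1.48-fold. The other Map2 probe set, 1368411_a_at, ran from 6.30 to 7.03 over the bone arrays, near the 6.32 to 6.66 of livers.

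Tubb3 was low in the EMD50 as well as the RA bone array. Its probe set 1371618_s_at, whose suffix marks probes that may match more than 1 transcript, read 8.03 in EMD50, 10.17 in EMD150, 8.15 in RA and 10.69 in control bone. The EMD50 array was 6.35-fold and the RA array 5.84-fold below the control. This was the 1 member probe set for which an EMD array did not exceed the RA array. The EMD50 array is the 1 with the high GAPDH 3' minus 5' difference, and the part of RNA quality in its Tubb3 value was not tested. The other Tubb3 probe set, 1369901_at, lay between 6.74 and 7.13 in bone. Map6, of a microtubule-stabilising protein, read 10.17 in EMD50, 10.73 in EMD150, 9.42 in RA and 10.13 in control bone by 1376907_at. The EMD150 array was 1.52-fold above the control and the RA array 1.64-fold below it. Map6 1368345_at and 1371087_a_at stayed within 1.26-fold of the control.

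**Figure D1:**
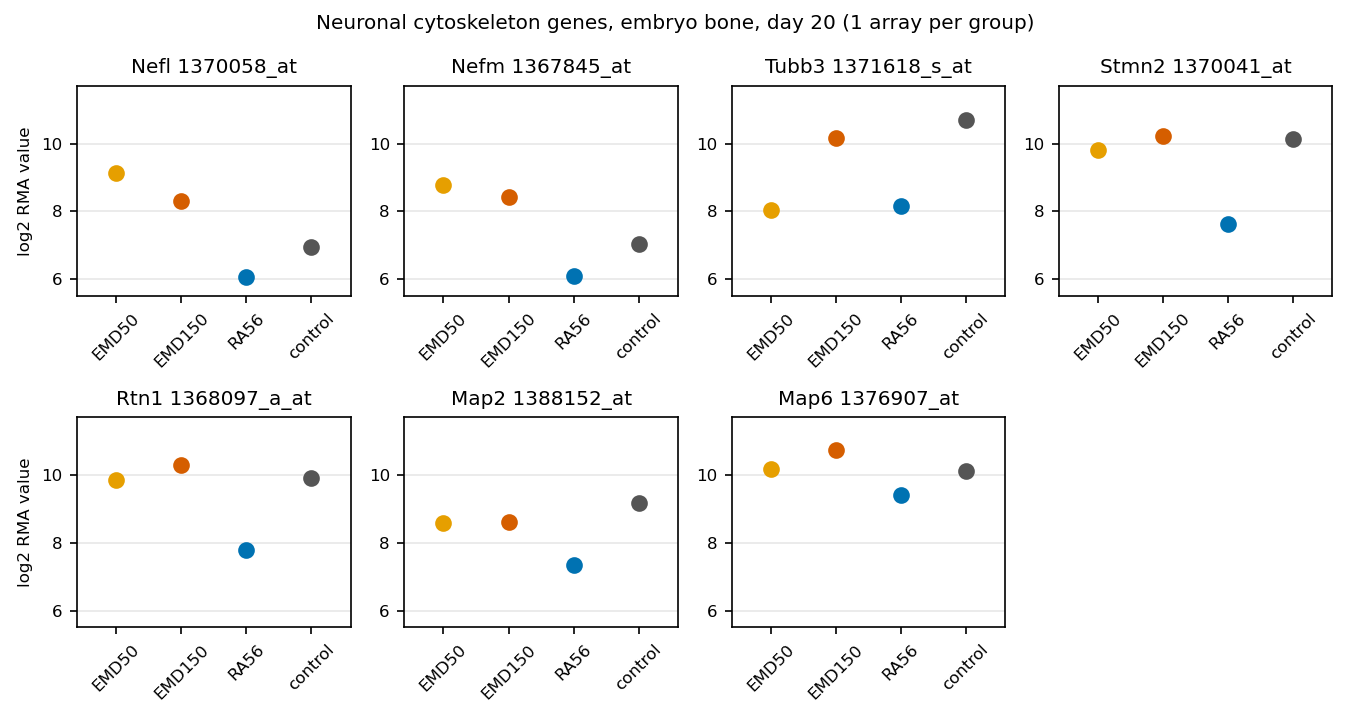
Log2 RMA values of 1 probe set per gene in the 4 embryo bone arrays of day 20, with 1 point per array (EMD50, EMD150, RA56 and control). Nefl and Nefm are highest in the EMD arrays, Stmn2, Rtn1 and Map2 are lowest in the RA array (7.64, 7.79 and 7.35), and Tubb3 is low in EMD50 (8.03) and RA (8.15).

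Over all 13 member probe sets of bone, the RA array was below the control in 13, with a median difference of -0.88, against 0.0035 over all probe sets. It was at least 2-fold below in 5 member probe sets (Tubb3 1371618_s_at, both of Stmn2, Rtn1 and Map2 1388152_at), which 0.479% of all probe sets did. Both EMD arrays were at least 2-fold above the RA array in 7 members, against 0.353% of all probe sets. Both EMD arrays above the control with the RA array below it, the strict form of opposite directions, was seen in 5 members: Nefl and its second probe set, Nefm, and Map6 1371087_a_at and 1376907_at. Of all probe sets, 14.3% showed that order. Map6 1371087_a_at lay between 5.56 and 5.86 in bone, within the 5.54 to 6.06 of the livers. For Map6 1376907_at the EMD50 difference was 0.04 and turned to -0.01 after quantile normalization. Since these values chose the genes, the counts are not evidence for the difference. Without the EMD50 array the strict count was 9, now with Tubb3 1369901_at, Stmn2 1370041_at, Rtn1 and Map6 1368345_at, which were above the control in EMD150 by 0.08 to 0.41 (log2 differences). EMD150 above and RA below the control held for 31% of all probe sets.

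Among other genes of the neuronal cytoskeleton, both EMD arrays above the control and RA below it held in bone for 3 of 6 intermediate filament, 6 of 20 microtubule-associated, 2 of 10 tubulin and 1 of 13 axonal motor genes, against 14.3% of all probe sets. The genes named next were chosen after their values were seen. Prph, of peripherin, read 9.18 in EMD50, 8.52 in EMD150, 6.49 in RA and 7.25 in control bone, the order of Nefl and Nefm. Ina, of the neurofilament partner internexin, read 8.54 in EMD50, 8.79 in EMD150, 7.48 in RA and 8.03 in control, and the heavy chain gene Nefh 8.99, 8.90, 8.11 and 8.39 in the same arrays. These were the 3 genes of the intermediate filament list with that order. Nes, of the progenitor filament nestin, went the other way, at 8.96 in EMD50, 9.87 in EMD150, 10.82 in RA and 10.32 in control bone.

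At least 2-fold below the control in RA bone were 3 of 20 microtubule-associated and 1 of 10 tubulin genes, against 0.479% of all probe sets. Stmn3, of a further stathmin, read 10.80 in EMD50, 10.98 in EMD150, 9.39 in RA and 10.75 in control bone, low in RA only. Tubb2b, of a beta-tubulin of growing neurons, was low in RA by much (12.74 in EMD50, 12.99 in EMD150, 11.31 in RA and 13.11 in control). Crmp1, of a collapsin response mediator that binds tubulin, was low in EMD50 and RA like Tubb3: 8.76 in EMD50, 9.94 in EMD150, 8.23 in RA and 9.99 in control. Uchl1, of an abundant neuronal ubiquitin hydrolase, read 9.11 in EMD50, 10.89 in EMD150, 9.66 in RA and 10.63 in control bone. Of the 20 measured microtubule-associated genes, 15 were below the control in RA bone, 9 in EMD50 and 9 in EMD150. The largest RA values above the control among them were those of Map4, of a widespread microtubule-associated protein (10.24 in RA and 9.26 in control bone), Dpysl2 (11.78 and 10.89) and Marcks (12.19 and 11.43). Of the 10 tubulin and tubulin-folding genes, 5 were below it in RA, 7 in EMD50 and 7 in EMD150, and Tubb6 (10.59 in RA and 10.02 in control) and Tuba4a (10.80 and 10.37) were above it in RA.

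**Figure D2:**
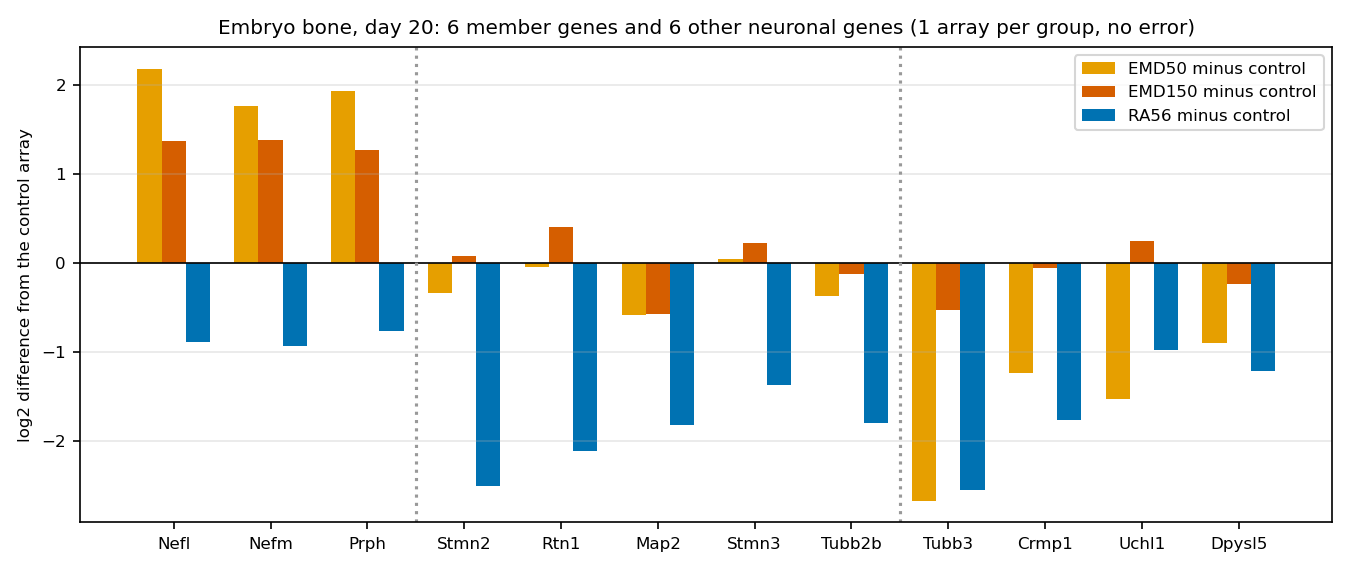
Log2 differences from the control bone array for 6 member genes and 6 other neuronal genes, with bars for EMD50, EMD150 and RA56 (1 array each, so no error bars). Left of the first dotted line Nefl, Nefm and Prph are above 0 in both EMD arrays and below 0 in RA, between the lines RA alone is far below 0, and right of the second line EMD50 and RA are both low. The other genes were picked after their values were seen.

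Neuronal genes outside the cytoskeleton were shifted in the same arrays, though not they alone. Of 39 such genes, 34 were below the control in RA bone (median difference -0.39), 24 in EMD50 bone (-0.07) and 6 in EMD150 bone (0.20). Over all probe sets 50.61% were above the control in RA bone, 49.6% in EMD50 and 55.44% in EMD150. Some lists of other cells were also mostly below the control in RA bone: 9 of 10 pancreatic acinar, 9 of 9 endocrine and chromaffin and 7 of 7 erythroid genes. Others were divided, with 9 of 17 hepatocyte, 7 of 12 glia and Schwann cell and 4 of 9 osteoblast genes below it. Skeletal muscle and cartilage went the other way, with 13 of 16 and 6 of 9 genes above it. By limma, 9 of the 39 neuronal genes were higher and 8 lower in bone than in embryo liver. Snap25, of synaptic vesicle fusion, read 8.19 in EMD50, 8.44 in EMD150, 7.23 in RA and 8.12 in control bone. The mean level of the neuron list was 7.73 in EMD50, 8.17 in EMD150, 7.50 in RA and 7.94 in control bone, and 7.46 to 7.84 in the livers. The 12 genes of glia and Schwann cells, which wrap axons, averaged 7.67 in EMD50, 8.02 in EMD150, 7.71 in RA and 7.72 in control bone.

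Genes of other tissues moved too. The 17 hepatocyte genes averaged 7.58 in EMD50 and 7.74 in EMD150 bone, against 9.37 in RA bone and 9.63 in control bone, all below the 13.37 to 13.73 of the livers. Alb, of serum albumin, read 10.70 in EMD50, 9.44 in EMD150, 13.60 in RA and 13.60 in control bone, so its RNA was high in both arrays with low Nefl. Skeletal muscle genes (16) averaged 11.18 in EMD50, 10.97 in EMD150, 11.85 in RA and 11.35 in control bone. Cartilage genes (9) averaged 11.13 and 11.09 in the EMD arrays, 10.54 in RA and 10.34 in control. The part that a differing mix of tissues has in the members' values was not tested.

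**Figure D3:**
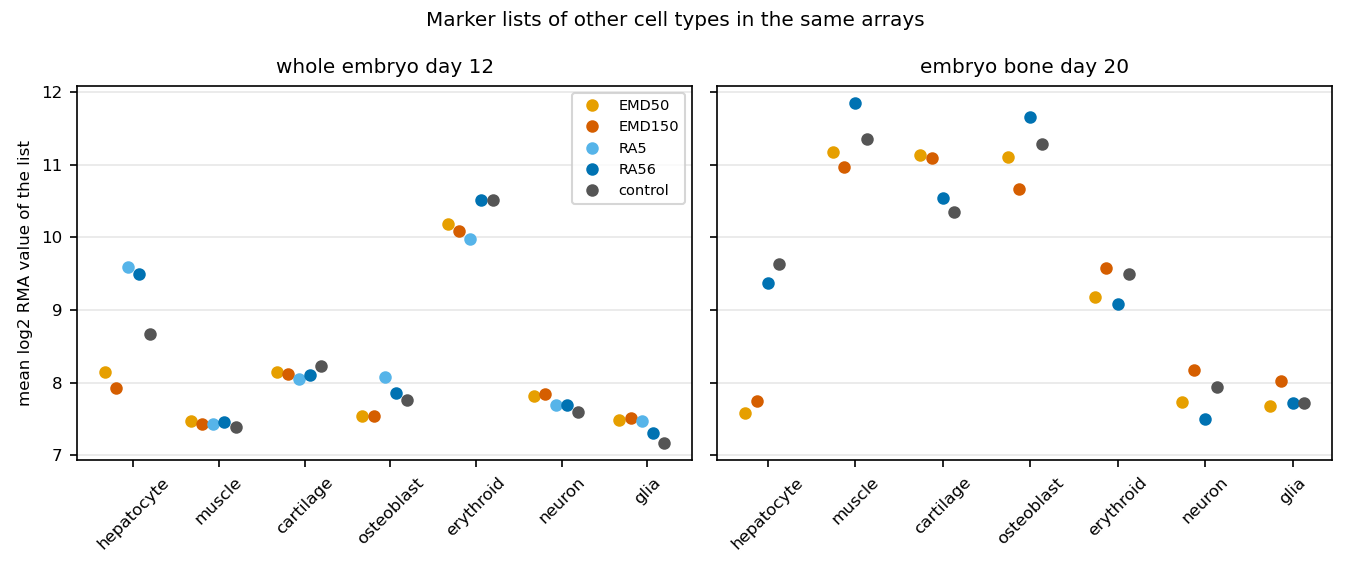
Mean log2 RMA values of 7 marker gene lists in the 5 whole embryo arrays (left) and the 4 embryo bone arrays (right), with 1 point per array. In bone the hepatocyte list is lower in EMD50 and EMD150 (7.58 and 7.74) than in RA56 and control (9.37 and 9.63), and the neuron list is lowest in RA56 (7.50).

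In whole embryo of day 12 the 2 RA arrays differed from each other for most members. Both EMD arrays lay between them in 8 of 13 member probe sets, as in 17.41% of all probe sets. Stmn2 (1370041_at) read 9.94 in EMD50, 9.88 in EMD150, 9.27 in RA5, 10.72 in RA56 and 10.01 in control embryo. The RA56 array was 1.45 above the RA5 array (log2 difference), and the EMD arrays were within 0.12 of the control. Rtn1 read 9.49 in EMD50, 9.33 in EMD150, 8.71 in RA5, 10.14 in RA56 and 9.40 in control. Tubb3 (1371618_s_at) read 10.95 in EMD50, 10.68 in EMD150, 9.78 in RA5, 11.17 in RA56 and 11.10 in control, so that RA5 alone was low by much. Nefm read 9.20 in EMD50, 9.24 in EMD150, 9.03 in RA5, 10.24 in RA56 and 9.75 in control. Both EMD arrays lay below the control for this gene, the reverse of bone. Nefl (1370058_at) read 9.12 in EMD50, 8.93 in EMD150, 8.46 in RA5, 9.06 in RA56 and 9.13 in control, with RA5 lowest, 1.59-fold below the control. The other Nefl probe set, 1370059_at, read 7.18 in EMD50, 7.21 in EMD150, 6.55 in RA5, 7.72 in RA56 and 7.29 in control, so RA56 was 2.25-fold above RA5. Map2 (1388152_at) read 8.68 in EMD50, 8.64 in EMD150, 7.61 in RA5, 8.84 in RA56 and 9.07 in control, all treated arrays below the control. The other Map2 probe set, 1368411_a_at, read 6.99 in EMD50, 6.85 in EMD150, 6.53 in RA5, 6.55 in RA56 and 7.70 in control. Its 2 RA arrays were alike, 2.25-fold and 2.22-fold below the control. The 3 Map6 probe sets stayed within 0.48 of the control.

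RA5 was below the control in 10 of the 13 member probe sets (47.92% of all) and RA56 above it in 7 (47.47% of all). RA5 below and RA56 above the control held for 6 members (Nefl 1370059_at, Nefm, Tubb3 1371618_s_at, both of Stmn2, and Rtn1), against 11.9% of all probe sets. Both RA arrays were below the control for Nefl 1370058_at, both of Map2 and Map6 1371087_a_at, and both above it for Tubb3 1369901_at. RA56 exceeded RA5 in 10 members, with a median of 1.17 over the 13, and in 50.78% of all probe sets. Both EMD arrays above the control with both RA arrays below it held for 0 members and 2.31% of all probe sets. At that low share, a count of 0 of 13 says nothing about the members. The reverse order, with both EMD arrays below the control and RA56 above it, held for 4 members and 11.4% of all probe sets. These were Nefl 1370059_at, Nefm (-0.55 in EMD50, -0.52 in EMD150 and 0.49 in RA56), Tubb3 1371618_s_at and Stmn2 1370041_at. After quantile normalization the EMD50 difference turned positive for Tubb3 1371618_s_at (0.15) and both EMD differences for Stmn2 1370041_at (0.14 and 0.13), and those of Nefl 1370059_at and Nefm stayed negative. Set against RA5 alone, the mean of the EMD arrays was higher in 12 of 13 members (median 0.56), and against RA56 in 4 of 13 (median -0.18). Both EMD arrays were above RA5 in 11 members and 44.06% of all probe sets, and above RA56 in 4 members and 45.93% of all. These values also took part in the choice of the genes.

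**Figure D4:**
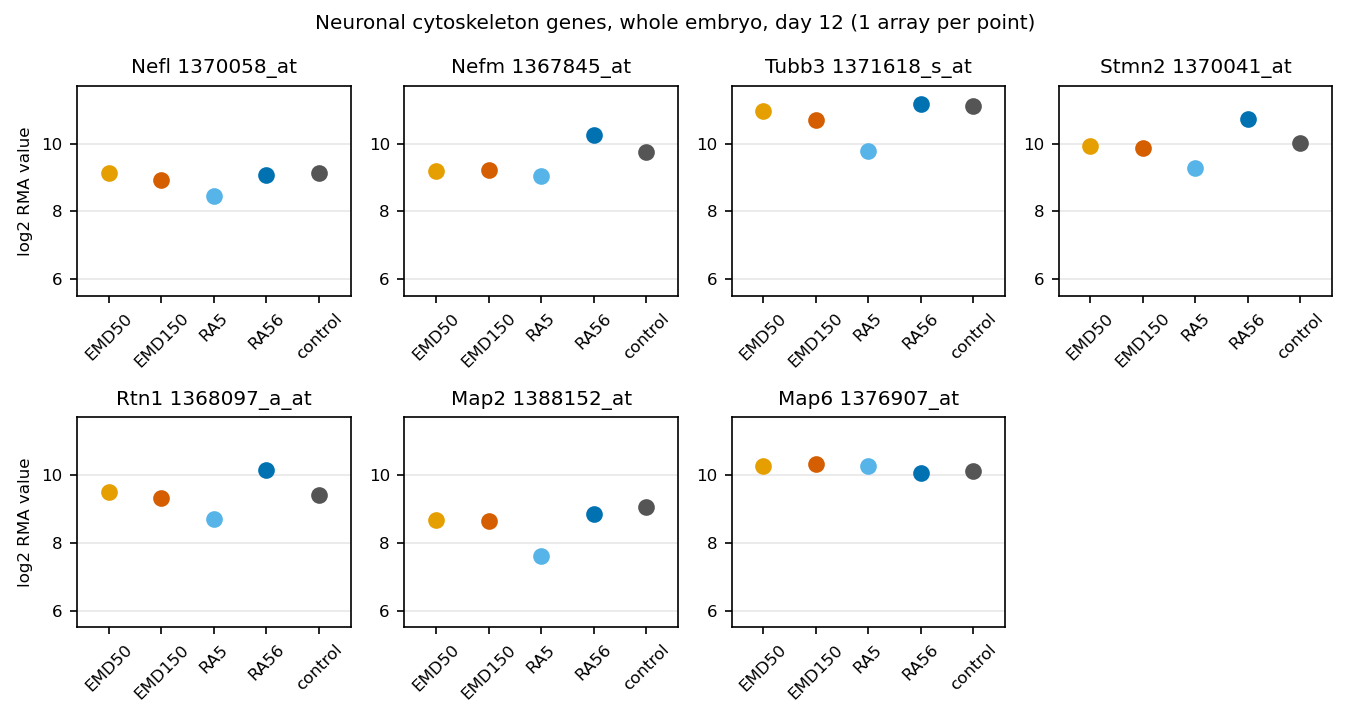
Log2 RMA values of 1 probe set per gene in the 5 whole embryo arrays of day 12, with 1 point per array (EMD50, EMD150, RA5, RA56 and control). RA5 is the lowest array for Nefl, Nefm, Tubb3, Stmn2, Rtn1 and Map2, while RA56 is the highest for Nefm, Tubb3, Stmn2 and Rtn1.

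Among other genes of the microtubule system, RA56 was above RA5 in 15 of 20 microtubule-associated, 9 of 10 tubulin, 10 of 13 axonal motor and 3 of 3 further reticulon genes. RA5 below the control with RA56 above it held for 4, 0, 2 and 1 of them in the same lists. Of the 39 neuron genes outside the cytoskeleton, 17 had RA56 above RA5. Crmp1 read 10.37 in EMD50, 10.37 in EMD150, 9.77 in RA5, 10.88 in RA56 and 10.86 in control embryo. The spread of values within an array moved with it: the SD over all probe sets was 1.70 in EMD50, 1.67 in EMD150, 1.66 in RA5, 1.80 in RA56 and 1.83 in control. With arrays centred and scaled to 1 common SD, the median of RA56 minus RA5 over the members was 1.09, and 0.97 after quantile normalization. The hepatocyte list averaged 8.14 in EMD50, 7.92 in EMD150, 9.59 in RA5, 9.50 in RA56 and 8.67 in control embryo, and 6 of its 17 genes were higher in RA56 than in RA5. Within it Alb read 10.19 in RA5 and 12.00 in RA56, while Apoa1 read 11.78 in RA5 and 10.35 in RA56. Their part in the members' values was not tested.

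The tissues' own levels were compared with limma over all 22 arrays. Genes chosen for differences among the whole embryo and bone arrays must be present in some of them, so the choice in part fixes the counts against liver, which are no evidence about the members. In whole embryo 11 member probe sets were higher than in maternal liver of day 12, where 35.5% of all probe sets were, and 1 was lower, against 34.3%. Tubb3 (1371618_s_at) averaged 10.74 ± 0.57 in whole embryo and 6.60 ± 0.13 in maternal liver (SD over all treatments, n = 5 each), a log2 difference of 4.14 ± 0.34 (SE, limma adjusted p = 1.734e-09). Stmn2 (1370042_at) averaged 9.65 ± 0.58 in whole embryo and 5.75 ± 0.14 in maternal liver, a difference of 3.90 ± 0.36 (8.06e-09). The embryo arrays did not overlap the liver arrays for these probe sets, but how many of all probe sets separate in this way was not counted. Nefm differed by 3.55 ± 0.33, Map2 (1388152_at) by 3.30 ± 0.22, Rtn1 by 2.77 ± 0.31 and Nefl (1370058_at) by 2.57 ± 0.32, with adjusted p from 6.973e-11 to 5.094e-07. The lower one was Tubb3 1369901_at, at -0.31 ± 0.09 (0.005475), so the 2 Tubb3 probe sets went opposite ways. Map6 1368345_at did not pass (0.02 ± 0.07, adjusted p = 0.792). The call of Map6 1371087_a_at (0.22 ± 0.09, 0.02664) ended without any 1 of 4 arrays, such as the whole embryo control (0.128).

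In bone 9 member probe sets were higher than in embryo liver of the same day, where 25.6% of all probe sets were, and 1 was lower, against 29.6%. Map2 (1388152_at) averaged 8.43 ± 0.77 in bone and 5.35 ± 0.08 in embryo liver (SD, n = 4 each), a difference of 3.08 ± 0.25 (adjusted p = 3.299e-09). Rtn1 differed by 2.76 ± 0.35 (1.854e-06), Tubb3 (1371618_s_at) by 2.48 ± 0.38 (2.347e-05), Stmn2 by 2.15 ± 0.36 and 1.95 ± 0.40 and Nefm by 1.57 ± 0.37 (0.001473). Nefl was higher by 1.09 ± 0.35 (0.01418) and 0.73 ± 0.26 (0.02568). Those calls rested on the EMD arrays: without the EMD50 bone array the adjusted p was 0.0842 and 0.15, and without the EMD150 bone array 0.0604 and 0.108. The second also ended without the EMD50 (0.0748) or EMD150 (0.0657) embryo liver. Map6 1368345_at was higher by 0.22 ± 0.08 (0.02683), a call that ended without either bone array of EMD150 (0.0972) or control (0.0911), or without the RA (0.0598) or control (0.0583) embryo liver. Tubb3 1369901_at was lower, at -0.34 ± 0.10 (0.007844), and did not pass without the 4 arrays in doubt named below (0.0983). Map6 1376907_at (0.24 ± 0.14, 0.144) passed without the RA bone array (0.00613).

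Whole embryo and bone differ in tissue and in day, which cannot be told apart. Set against bone, 5 member probe sets were higher in whole embryo (26.7% of all probe sets were) and 1 was lower (19.9%). The arrays of both tissues took part in the choice of the genes, so these counts and the p-values below are no evidence about the members. Nefm averaged 9.49 ± 0.50 in whole embryo (n = 5) and 7.58 ± 1.25 in bone (n = 4), a difference of 1.96 ± 0.35 (limma adjusted p = 0.0001124). Tubb3 (1371618_s_at) was higher by 1.53 ± 0.37 (0.001819), Stmn2 (1370042_at) by 1.45 ± 0.38 (0.003892) and Nefl by 1.40 ± 0.34 (0.001873) and 0.68 ± 0.25 (0.03361). The lower one was Map6 1368345_at, at -0.30 ± 0.08 (0.004082). Rtn1 differed by 0.01 ± 0.33 (0.983). Map2 1368411_a_at (0.34 ± 0.14, 0.0564) missed the threshold but passed after quantile normalization (0.0294) or scaling to a common SD (0.0173). The arrays left out as in doubt weighed on these values, though of them only the EMD50 bone array stood apart in RNA quality. Without the EMD50 and RA bone arrays, the RA56 embryo and the RA maternal liver of day 20, Tubb3 (0.31, adjusted p = 0.279) and Stmn2 (0.47, 0.108) did not pass. Rtn1 was then lower in whole embryo (-0.80, 0.00382), as it was without the RA bone array alone (adjusted p = 0.0399). The second Nefl probe set lost its call without the RA bone array (0.24), the control bone (0.155), the control embryo (0.0766) or the RA56 embryo (0.0954).

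**Figure D5:**
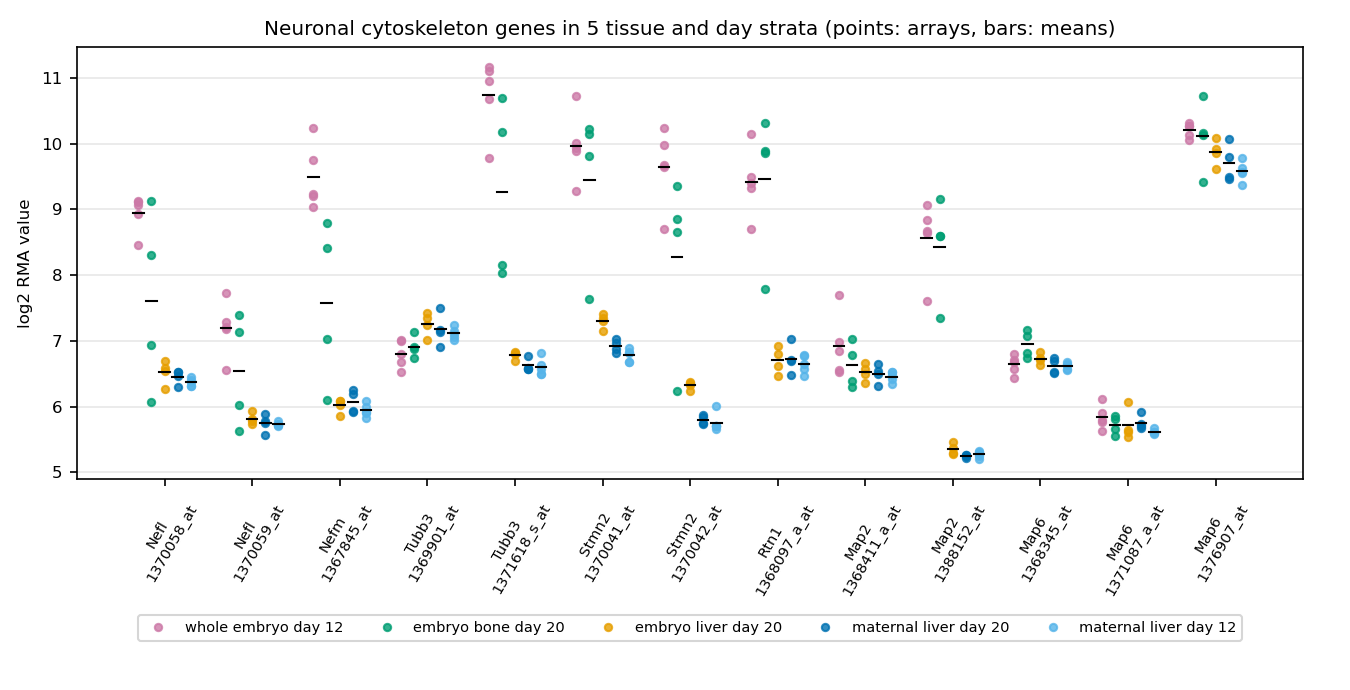
Log2 RMA values of all 13 member probe sets in whole embryo (5 arrays), embryo bone (4), embryo liver (4) and maternal liver of day 20 (4) and day 12 (5), with points for arrays and bars for means. Livers lie low and close together for Nefl, Nefm, Stmn2, Rtn1, Tubb3 1371618_s_at and Map2 1388152_at, and the bone arrays spread the most, with SDs of 0.77 to 1.39, for these probe sets.

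Other genes of the same machinery followed the tissue order in part. Of the 20 microtubule-associated genes, 15 were higher and 1 was lower in whole embryo than in maternal liver, and 15 were higher and 0 lower in bone than in embryo liver. Stmn1, of the widespread stathmin of dividing and growing cells, was higher by 4.10 ± 0.15 in whole embryo (limma adjusted p = 7.957e-15) and by 0.78 ± 0.17 in bone (0.0007781). Gap43, of growing axons, was higher by 1.81 ± 0.14 (6.874e-10) in whole embryo and by 2.13 ± 0.16 (1.066e-09) in bone. Of the 6 intermediate filament genes, 3 were higher in whole embryo, and 3 higher and 1 lower in bone. Nes led in whole embryo with 3.12 ± 0.25 (8.501e-10), and the lower one in bone was Gfap, of astrocytes, at -1.03 ± 0.17 (4.995e-05). Between whole embryo and bone, 7 microtubule-associated genes were higher and 6 lower in the embryo, with Dpysl4 at 1.55 ± 0.14 (1.734e-08) and Gap43 at -0.67 ± 0.15 (0.001081).

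The livers offered the treatment contrasts in tissue that the choice of genes had not used. Most members were low there, with Nefl 1370058_at between 6.26 and 6.69 and Map2 1388152_at between 5.20 and 5.46 over the 13 arrays. EMD 82571 minus RA was called by limma for 0 of 13 members, against 0.315% of all probe sets. Of the members 3 had an unadjusted p under 0.05, as had 3256 probe sets in all: Map6 1376907_at at 0.29 ± 0.09 (adjusted p = 0.120), Nefm at 0.19 ± 0.06 (0.142) and Map2 1368411_a_at at 0.17 ± 0.06 (0.167). EMD 82571 minus control called 0 members and 0% of all probe sets, with 1 member (Nefl 1370059_at, -0.12 ± 0.05, adjusted p = 0.996) and 542 probe sets at an unadjusted p under 0.05. RA minus control called 0 members and 0% of all, with 0 members and 1701 probe sets at an unadjusted p under 0.05. The 95% intervals of the members lay between -0.19 and 0.47 for EMD minus RA, between -0.29 and 0.30 for EMD minus control and between -0.42 and 0.23 for RA minus control. Where a member is this low in liver, a lower level under treatment could not be seen.

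The doses of EMD 82571 were compared over all 22 arrays, which include the EMD arrays of whole embryo and bone that the choice used. EMD150 minus EMD50 was called for 0 members and 0% of all probe sets by limma, with 3 members and 2311 probe sets at an unadjusted p under 0.05. These members were Tubb3 1369901_at at 0.28 ± 0.09 (adjusted p = 0.288), Map6 1376907_at at 0.30 ± 0.12 (0.303) and Map6 1368345_at at 0.17 ± 0.07 (0.318). In bone, Nefl, Nefm and Prph were higher in EMD50 than in EMD150, while Tubb3 1371618_s_at, Stmn2 and Rtn1 were lower in it.

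The genes whose pattern was most like the members' mean were found over the 9 whole embryo and bone arrays, each stratum centred on its mean. Highest were Chgb (r = 0.99), a granin of secretory granules, Sbk1 (0.98), Hoxc4 (0.98), Gramd4 (0.98), Zfp420 (0.97), Stmn3 (0.96), Crym (0.96) and Rnf157 (0.96). Chgb differed by 0.81 between the EMD mean and RA in bone, and by 0.08 in whole embryo. At the opposite end were Vmp1 (-0.99), Fkbp10 (-0.99), Dusp22 (-0.98), Casq2 (-0.96), of calcium storage in muscle, and Nfic (-0.96). Among the members themselves r with this mean ran from 0.98 for Rtn1 and 0.97 for Stmn2 1370041_at to 0.65 for Tubb3 1371618_s_at and 0.17 for Tubb3 1369901_at. The mean was taken over 1 probe set per gene, among them those of Rtn1, Stmn2 1370041_at, Tubb3 1371618_s_at and Map2 1368411_a_at (r = 0.45). For these, r is thus in part that of a value with itself. The arrays share their control and their scaling, few arrays set these values, and the RA bone array is the far point for the genes named.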

How the data were processed

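RNA of 22 rat samples was measured on single-colour expression arrays. The authors deposited log2 values from RMA, per the submitters' processing notes, in 1 table of 15923 rows, of which 57 are array controls. No source used here gives its version or says whether all arrays were processed together. Gene symbols came from the platform's probe table: 12783 probe sets had 1 symbol, 312 several and 2771 none. The members and the 16 lists (247 genes, 203 measured) were chosen with earlier results of these data known. One probe set per listed gene, that with the highest mean, was used.

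limma 3.58.1 in R 4.3.3 fitted stratum plus treatment (eBayes with trend, two-sided, Benjamini-Hochberg over 15866 probe sets, call at adjusted p under 0.05). Tissue and dose contrasts used 22 arrays (14 residual degrees of freedom), liver contrasts 13 (7). With 1 or 2 arrays per group, p-values of the dose and liver contrasts rest on strata as repeats. Those of the tissue contrasts rest on the differently treated arrays of each stratum. Nothing says that arrays came from separate litters. The number of arrays limits the precision. Alternatives were other scalings, a filter, no trend and arrays left out. All member probe sets are named; the other genes named were picked from the fixed lists after their values were seen, or by the likeness rule.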

Additional observations from a re-analysis of the deposited data

Results flagged for a closer look

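The mean EMD 82571 difference from control had opposite signs in the embryo bone and the whole embryo arrays for 4 member probe sets, in every EMD array of each tissue. How many of all probe sets do so was not counted. Bone minus whole embryo was 1.88 for Nefl 1370058_at (1.78 in bone, -0.11 in whole embryo), 1.33 for Nefl 1370059_at (1.24 and -0.09), 2.10 for Nefm (1.57 and -0.53) and 0.51 for Map6 1371087_a_at (0.18 and -0.34). For RA the same held for Tubb3 1369901_at, at -0.49 (-0.17 in bone, 0.32 in whole embryo). The bone values of Map6 1371087_a_at lay within the range of the livers. For Nefl 1370058_at the sign in whole embryo depends on the scaling: its EMD50 difference was -0.02 as deposited, 0.10 after quantile normalization and 0.03 with a common SD. The other signs held under both. These differences were not tested, as each rests on 1 or 2 arrays per group and tissue and day differ together.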

How the results depend on the processing

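A filter that kept probe sets with a mean above the median left 1 member (Map6 1376907_at). It gave 0 member calls for bone minus embryo liver (10 in the report), 1 for whole embryo minus maternal liver (12) and 0 for whole embryo minus bone (6), since the other members were not tested, and 1 bone member with EMD above and RA below control (5). That bone count was 3 with a minimum difference of 0.25 (78 of 15866 probe sets in all) and 9 without EMD50 (4915 in all). The whole embryo count was 2 without RA5 (0 in the report), while that over all 15866 probe sets rose from 367 to 2205. With 1 array left out, member calls ran from 7 to 11, 11 to 12 and 5 to 7 in these 3 tissue contrasts, and stayed 0 for the livers and for dose, although the EMD minus RA calls over all probe sets in liver ran from 0 to 415. The counts of at least 2-fold members in bone were chosen after the data were seen: RA below control stayed 5 under both other scalings, and EMD above RA ran from 7 to 9 over the scalings and without either EMD array. Over all 15866 probe sets these counts ran from 76 to 98 and from 56 to 206. Under the other scalings RA was below control in bone in 13 of 13 members, and in whole embryo RA56 stayed above RA5 in 10 and above control in 7 members. EMD50 differences in whole embryo changed sides more: 7 members were above control under either scaling, against 5, and for EMD150 6 after quantile normalization and 5 with a common SD, against 3. The fit itself matches treatments across tissues. No paired analysis was possible because the labels give no replicate numbers that the compared groups share.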
